A study of Mus musculus with 21 samples.

Results

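SLC16A1 clone 1, a line of mouse embryonic stem cells (ESCs), was compared with the line chr8A in SL medium. The comparison rests on 3 libraries of each line, 6 of the 21 libraries of the series, chosen by their column names in the raw count table of the MCT1 experiment. Of 40838 genes in that table, 17178 had enough reads to be tested. Poly(A)-selected RNA was sequenced, and each library is a bulk sample of 1 line. Before sampling, cells of both lines had been held for 48 h with 0.2 mM sodium pyruvate and 10% dialyzed serum, so pyruvate was present in every library compared. The medium names were taken to mean serum plus leukemia inhibitory factor (LIF) for SL, and serum, LIF and 2i, a pair of drugs against the kinases GSK3B and MEK, for SL2i. How the SLC16A1 clones were altered, what chr8A carries and whether the libraries of a line come from separate cultures are not given in the sources used here. Clone 1 is a single clone. Its differences from chr8A are therefore differences between 2 lines, and the p-values below rest on library-to-library spread, which may be purely technical. Other libraries are used for values side by side: both lines in SL2i (2 libraries each), SLC16A1 clone 2 in SL (3) and cells with a vector in SL (3, in a separately normalized table).

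Slc16a1 encodes MCT1, a proton-linked transporter of the plasma membrane that moves pyruvate and lactate in the direction of their gradients. Its close relative MCT4, the product of Slc16a3, is best known for lactate export, and both need a chaperone, basigin (Bsg) or embigin (Emb), to reach the membrane. Imported pyruvate can be burned in the mitochondria or reduced to lactate by lactate dehydrogenase, which turns NADH back into NAD+. Mouse ESCs in serum and LIF drift between a naive state, held by factors such as Esrrb, Tfcp2l1 and Klf2, and a formative state on the way to the postimplantation epiblast, which signalling through FGF and ERK favours.

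The libraries held 23103813 to 25045069 counts in chr8A and 16647156 to 18617937 in clone 1. Levels below are CPM, counts scaled to a common library total after TMM normalization, with their SD over the 3 libraries of a group (n = 3). Changes are log2 fold changes ± SE from edgeR's quasi-likelihood test, in which a gene with a Benjamini-Hochberg adjusted p under 0.05 over all 17178 genes was called higher or lower. The first principal component of 9929 genes held 56.7% of the variance and separated the lines. By a chi-square of raw gene counts, the chr8A libraries differed more among themselves than those of clone 1. Divided by its degrees of freedom, it ran from 4.72 to 13.7 in chr8A, the highest between replicates 1 and 3. Within clone 1 it ran from 2.05 to 3.75. This measure tends to grow with depth, and the chr8A libraries were deeper, so part of the gap may come from depth.

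Slc16a1 itself was transcribed in every library of both lines and was modestly lower in clone 1. Its level was 195, 201 and 198 CPM in the chr8A libraries and 168, 182 and 162 CPM in the clone 1 libraries. All 3 clone 1 libraries lay below all 3 chr8A libraries, and the widest spread was that of clone 1. The change was -0.21 ± 0.0332 (adjusted p = 2.70e-07). Vector cells in SL, set beside these without a test, held 155 ± 2.88 CPM of Slc16a1, below every clone 1 library. An mRNA level does not show whether the transporter is made. The related transporter and both chaperones moved the other way. Slc16a3 stood at 139.5, 146 and 149 CPM in chr8A and 171, 164 and 173 CPM in clone 1, without overlap, a change of 0.23 ± 0.0360 (adjusted p = 8.53e-07). Emb stood at 269, 251 and 263 CPM in chr8A and 306, 292 and 304 CPM in clone 1, a change of 0.20 ± 0.0303 (adjusted p = 1.05e-07), with 7.87% of its sequence shared with other genes. Bsg rose least, by 0.11 ± 0.0290 (adjusted p = 0.00535), and its call was lost without chr8A replicate 1 (adjusted p = 0.0524) or clone 1 replicate 1 (adjusted p = 0.0633). Divided by gene length, Slc16a1 was the most abundant transporter in chr8A, with 44.7 ± 0.675 CPM per kb against 39.4 ± 1.28 for Slc16a3. In clone 1 that order turned, with 38.5 ± 2.34 for Slc16a1 and 46.1 ± 1.31 for Slc16a3. Bsg exceeded both, at 178 ± 4.05 and 192 ± 4.63 CPM per kb. The other measured transporters of the list were minor in both lines, from 0.0865 (Slc5a8) to 2.79 CPM per kb (Slc16a13) in chr8A. Over the whole list of monocarboxylate transporters and chaperones, 3 of 10 tested genes were called higher and 1 lower. Over all genes tested 16.6% were called.

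Differences between the lines were many and small. Of the 17178 genes, 1516 (8.83%) were higher in clone 1 and 1334 (7.77%) lower. Their median size was 0.20 on the log2 scale, and only 96 of the higher and 150 of the lower genes differed by 1.5-fold or more, 34 and 59 of them by 2-fold or more. The median change of all genes was -0.00096. Calls were more frequent among abundant genes: of the 10250 genes with at least 3 log2 CPM, 1371 were higher and 1101 lower. Libraries of the lines did not overlap for 5443 genes (31.7%), with clone 1 above for 16.3% and below for 15.4%. Without chr8A replicate 3, 1005 genes were higher and 1108 lower, so that the larger direction turned.

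**Figure D1:**
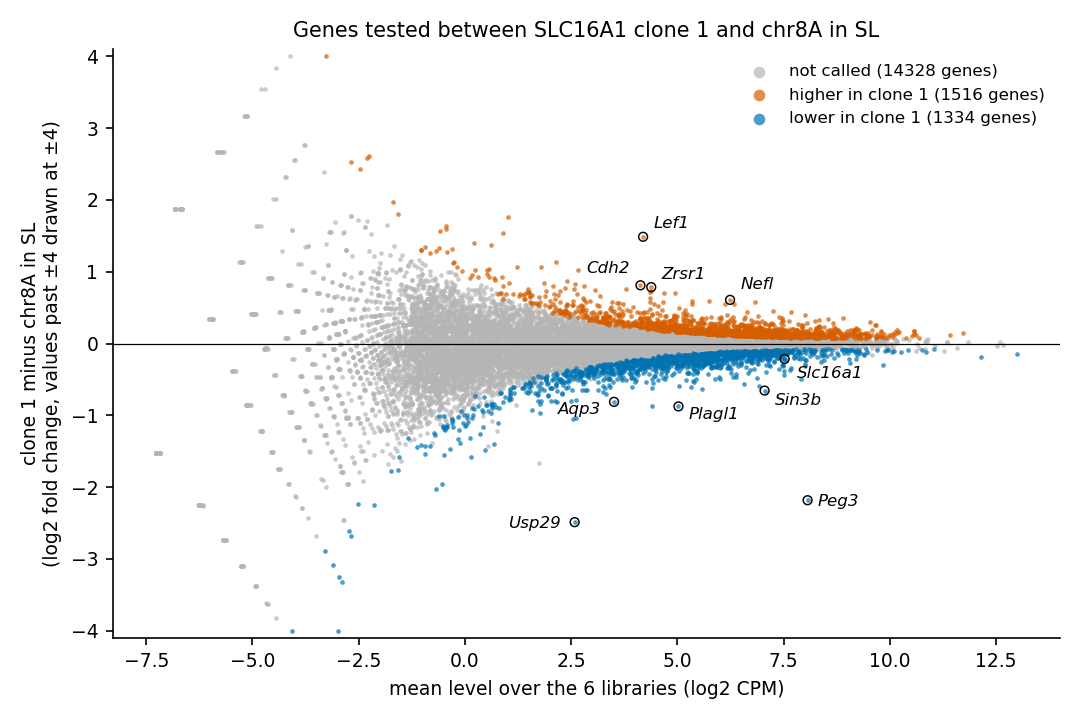
Each point is 1 of 17178 genes tested; the x axis gives its mean level over the 6 libraries (log2 CPM) and the y axis the log2 fold change, clone 1 minus chr8A in SL. Called genes are coloured, and 10 genes named in the text are ringed: most called genes lie close to 0, while Peg3, at -2.18, has the lowest value among genes of 3 log2 CPM or more.

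The most compact pattern lay on chromosome 8. There, 13 consecutive tested genes from Klf2 to Sin3b all had negative values in clone 1. Ap1m1, the nearest gene of at least 3 log2 CPM before the stretch, did not. Of the 13, 10 were called lower, among them all 9 that averaged 3 log2 CPM or more, whose changes ran from -0.47 to -0.66 with a median of -0.56. The median ratio of clone 1 to chr8A was 0.676. For each of these 9 genes all clone 1 libraries lay below all chr8A libraries, against 15.4% of all genes tested. The genes were chosen after their values were seen, so their count is a description.

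At the proximal end of the stretch lies Klf2, a transcription factor gene of naive pluripotency. It stood at 110.4, 121 and 111 CPM in chr8A and 76.4, 76.3 and 78.8 CPM in clone 1, a change of -0.56 ± 0.0363 (adjusted p = 6.06e-25). Sin3b, which encodes a scaffold of histone deacetylase complexes, closes the stretch at the other end. It stood at 156, 166 and 165 CPM in chr8A and 106, 106 and 98.4 CPM in clone 1, a change of -0.66 ± 0.0354 (adjusted p = 3.78e-30). In both genes the clone 1 libraries were close to each other and far below the lowest chr8A library. Between them, the endocytic adaptor gene Eps15l1 went from 146 ± 4.43 to 96.97 ± 3.93 CPM (-0.59 ± 0.0357). Cherp, a gene of an endoplasmic reticulum protein linked to calcium release and splicing, went from 280.04 ± 9.86 to 198 ± 2.15 CPM (-0.50 ± 0.0297). Slc35e1, a member of the nucleotide sugar transporter family, changed by -0.47 ± 0.0399, Med26, a Mediator subunit gene, by -0.60 ± 0.0593, and Smim7, which encodes a small membrane protein, by -0.50 ± 0.0453. The potassium channel gene of the sarcoplasmic reticulum Tmem38a changed by -0.62 ± 0.0752 and 1700030K09Rik by -0.51 ± 0.0903. The adjusted p of the 9 genes was 7.45e-06 or lower. The other 4 genes were weakly transcribed: Gm51538 was called lower (-1.46 ± 0.419), a call lost without chr8A replicate 3 (adjusted p = 0.0709), without clone 1 replicate 3 (adjusted p = 0.0769) and at equal depth (adjusted p = 0.104), while Calr3 (-0.56 ± 0.260), Gm46043 (-0.46 ± 0.465) and Nwd1 (-0.31 ± 0.218) were not called.

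Genes on both sides of the stretch differed less. The 6 nearest genes of at least 3 log2 CPM before Klf2 had a median of 0.07, from 0.01 to 0.20. The closest of them, Ap1m1, stood at 0.05 ± 0.0543. The 6 such genes after Sin3b had a median of 0.01. Weaker genes on either side are not counted here. Among 11320 windows of 9 neighbouring genes with at least 2 log2 CPM over the genome, the one from Klf2 to Sin3b had the lowest median and was the only one in which all 9 genes were called lower. The next lowest outside this stretch had a median of -0.32, and the 1st percentile of windows was -0.16. Windows overlap, so they are not independent. A window of 9 genes fits the already chosen stretch exactly, so its rank is a description and not a separate test.

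The same genes can be read in libraries that the comparison did not use. In SL2i, all 9 were again lower in clone 1 than in chr8A, with a median of -0.44 and a range of -0.88 to -0.36. Against the same chr8A libraries, clone 2 in SL had a median of -0.56 for the 9 genes. Clone 2 and clone 1, tested directly, differed by a median of 0.03 there, with 1 of the 9 called, Cherp (0.10 ± 0.0301, adjusted p = 0.0263). In vector cells, whose levels can be set beside these but not tested, 8 of the 9 genes lay below chr8A, with a median log2 ratio of -0.43. Over all 10250 genes of at least 3 log2 CPM the middle 50% of that ratio ran from -0.27 to 0.23. The exception was Klf2, which was higher in vector cells (177 ± 16.2 CPM). Copies of the DNA were not measured, and their part in this pattern was not tested.

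**Figure D2:**
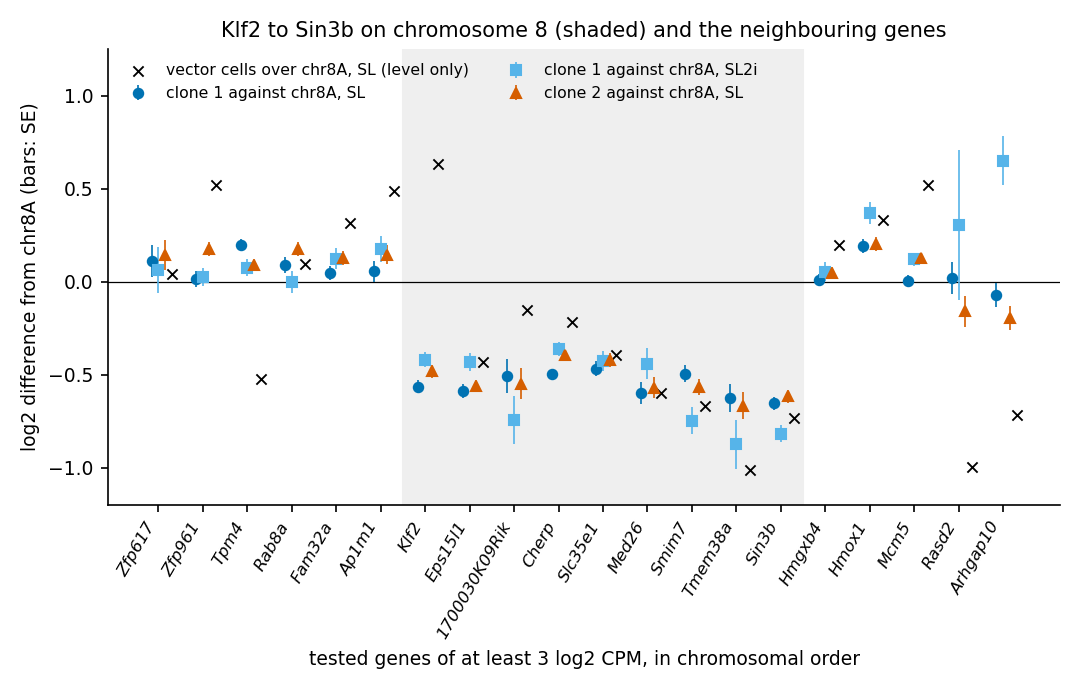
Log2 difference from chr8A (y axis, bars are SE) of 9 genes from Klf2 to Sin3b (shaded), 6 before them and 5 of the 6 after them. All are tested genes of at least 3 log2 CPM, in chromosomal order (x axis). Values are for clone 1 in SL and SL2i, clone 2 in SL, and vector cells (crosses, levels without a test). Inside the shaded stretch clone 1 in SL lies between -0.47 and -0.66, and outside it between -0.07 and 0.20.

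The largest fall among genes of 3 log2 CPM or more was that of the imprinted, paternally expressed zinc finger gene Peg3 on chromosome 7. Peg3 stood at 445, 434 and 439 CPM in chr8A and at 94.03, 101 and 95.2 CPM in clone 1, so the libraries of each line were nearly equal and the lines more than 4-fold apart. The change was -2.18 ± 0.0334 (adjusted p = 6.61e-79). Its neighbour Usp29, an imprinted deubiquitinase gene, fell with it, from 10.6, 9.59 and 10.4 CPM in chr8A to 1.38, 2.19 and 1.90 CPM in clone 1 (-2.49 ± 0.163, adjusted p = 1.84e-24). Zim1, a maternally expressed gene of the same imprinted cluster, was not called (0.03 ± 0.223, adjusted p = 0.954). Peg3 and Usp29 are read in opposite directions from starts 163 bases apart, and the stretch between these starts is shown because both genes fell. It lies at chr7:6730420-6730582 of GRCm38.p6 (RefSeq, plus strand, read towards Usp29), and capitals mark its CpG sites, the positions that DNA methylation uses.
Peg3 to Usp29: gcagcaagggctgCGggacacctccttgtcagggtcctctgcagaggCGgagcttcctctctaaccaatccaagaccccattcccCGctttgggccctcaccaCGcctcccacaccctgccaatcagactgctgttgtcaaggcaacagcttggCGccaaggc
The stretch has 5 CpG sites, and 47.0% of 32851 RefSeq start sites have as many or more in the same number of bases before the start. Methylation was not measured. In SL2i the fall of both genes was about as large (-2.13 ± 0.0607 for Peg3 and -2.06 ± 0.289 for Usp29), and neither difference between the media was called. Vector cells in SL held 134 ± 10.9 CPM of Peg3, closer to clone 1 than to chr8A.

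The other large falls were in genes of moderate level with varied roles. Plagl1, an imprinted zinc finger gene that slows growth, stood at 42.3, 38.9 and 45.4 CPM in chr8A and 21.8, 22.3 and 24.9 CPM in clone 1 (-0.88 ± 0.0560, adjusted p = 1.84e-24). Plac8, a small cysteine-rich protein gene first found in placenta, went from 27.3 ± 0.605 to 14.96 ± 0.241 CPM (-0.87 ± 0.0786). Aqp3, a channel gene for water and glycerol, went from 14.5 ± 1.67 to 8.28 ± 0.904 CPM (-0.81 ± 0.0882). Inpp5d encodes the inositol phosphatase SHIP1 and went from 58.5 ± 1.57 to 37.8 ± 1.34 CPM (-0.63 ± 0.0451). The sterol exporter gene Abcg1 (-0.61 ± 0.104), the mitochondrial aldehyde dehydrogenase gene Aldh1b1 (-0.62 ± 0.110), the GTPase-activating protein gene Stard8 (-0.71 ± 0.109), the pigment cell gene Pmel (-0.68 ± 0.102) and Ypel2 (-0.65 ± 0.107) completed the 12 with Sin3b and Tmem38a of the chromosome 8 stretch. For these 12 genes every clone 1 library lay below every chr8A library, a condition of the rule that chose them, and their adjusted p was 8.98e-06 or lower.

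Lef1, a DNA-binding partner of beta-catenin in Wnt signalling, rose most among genes of 3 log2 CPM or more. It stood at 10.7, 8.35 and 9.85 CPM in chr8A and 27.98, 26.7 and 26.3 CPM in clone 1, a nearly 3-fold gap with tight libraries on both sides (1.49 ± 0.0801, adjusted p = 3.78e-30). Cdh2 encodes N-cadherin, an adhesion protein of the epiblast after implantation and of neural tissue, and went from 11.9, 12.7 and 13.6 to 22.5, 20.97 and 23.6 CPM (0.81 ± 0.0800, adjusted p = 2.18e-14). In vector cells in SL, set beside these without a test, Lef1 stood at 36.5 ± 5.36 CPM, nearer clone 1 than chr8A. Cdh2 stood there at 10.9 ± 0.971 CPM, nearer chr8A than clone 1. A pair of neighbouring neurofilament genes on chromosome 14 rose together: Nefl from 58.9, 60.7 and 60.1 to 90.1, 93.5 and 90.6 CPM (0.61 ± 0.0408) and Nefm from 10.1, 10.1 and 10.5 to 17.2, 17.4 and 17.5 CPM (0.76 ± 0.0825). The imprinted splicing factor gene Zrsr1, which lies inside an intron of Commd1, rose by 0.79 ± 0.0913, while Commd1 was not called (-0.09 ± 0.0458). Further rises were those of the amino acid transporter gene Slc6a14 (0.74 ± 0.0827), Nt5e, which encodes the ectoenzyme CD73 that makes adenosine (0.70 ± 0.0684), and Arhgef26, a guanine nucleotide exchange factor gene (0.75 ± 0.112). Akap17a (0.71 ± 0.0739), the casein gene Csn3 (0.66 ± 0.115) and the giant muscle protein gene Ttn (0.63 ± 0.0888) were also among them. The adjusted p was 1.1e-05 or lower for these 11 genes, and clone 1 libraries lay above chr8A libraries in each, as the rule asked. Arhgef26 varied among the clone 1 libraries, at 10.8, 12.5 and 8.16 CPM against 6.68, 6.29 and 5.80 CPM in chr8A.

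**Figure D3:**
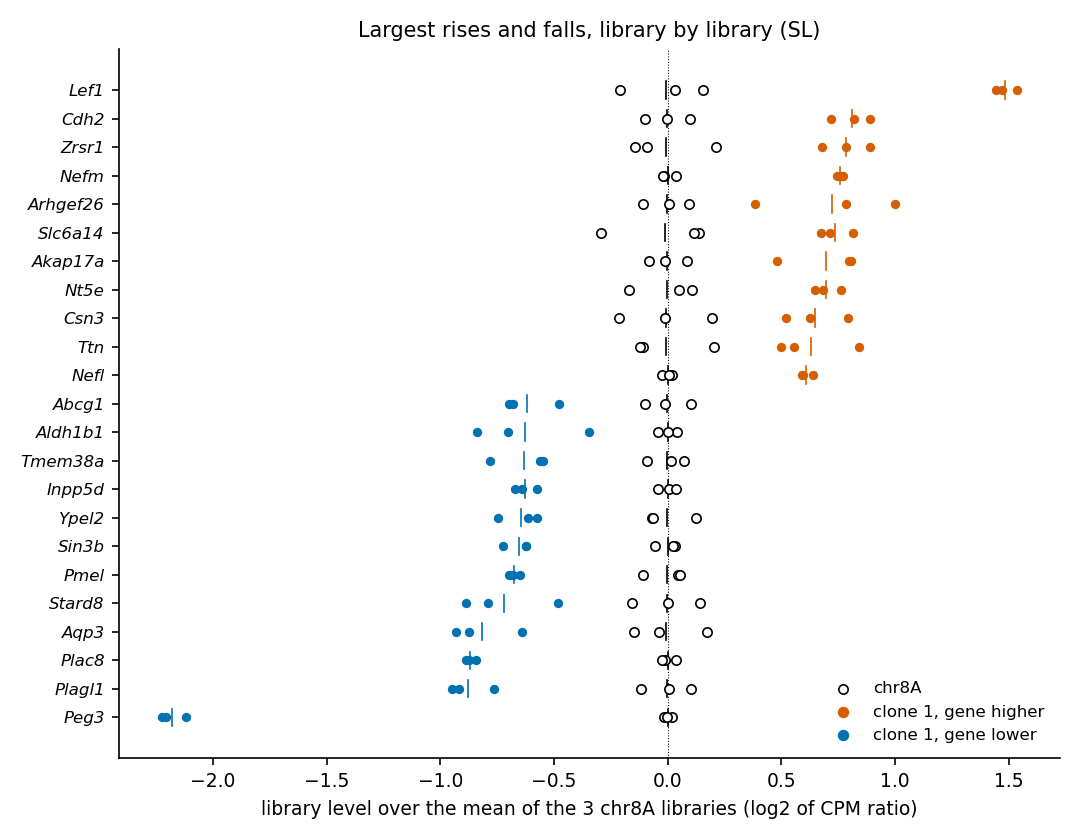
The 11 rises named and the 12 largest falls by the naming rule, 1 row per gene; points are single libraries, placed by the log2 ratio of their CPM to the mean of the 3 chr8A libraries (x axis), and ticks are group means. Open points are chr8A and filled points clone 1, and Peg3, the bottom row, lies past -2 in every clone 1 library.

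Naive pluripotency genes were mostly lower in clone 1. Of 22 tested, 12 were called lower and 1 higher, against 7.77% and 8.83% of all genes tested, and their median was -0.19 against -0.00096 for all genes. Tfcp2l1 and Esrrb are transcription factors that hold the naive state under LIF and Wnt signals. Tfcp2l1 went from 208, 204 and 208 CPM in chr8A to 156, 160.02 and 158 CPM in clone 1 (-0.39 ± 0.0310, adjusted p = 4.75e-19). Esrrb went from 277, 293 and 275 to 227, 233 and 234 CPM (-0.28 ± 0.0295, adjusted p = 2.23e-13). In both, the 3 libraries of each line were close together and the lines did not overlap. Fbxo15, an Oct4 target gene, changed by -0.35 ± 0.0357 and the Akt coactivator gene Tcl1 by -0.50 ± 0.0641. Klf2, the naive gene with the smallest adjusted p, lies in the chromosome 8 stretch. Nanog changed by -0.20 ± 0.0296 (10.8% shared), Tbx3 by -0.34 ± 0.0780 and Zfp42 by -0.21 ± 0.0310 (13.6% shared). Klf4 was not called (0.02 ± 0.0421) and Klf5 was higher (0.12 ± 0.0406, adjusted p = 0.0282). The core factors split, Pou5f1 being slightly higher (0.13 ± 0.0278; 5.40% shared) and Sox2 lower (-0.16 ± 0.0288). In bulk libraries fewer cells of a state and less RNA per cell cannot be told apart. Without chr8A replicate 3, 13 naive genes were lower and none was higher.

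Formative and primed genes were mostly higher: 12 of 19 tested were called higher and 1 lower, against 8.83% and 7.77% of all genes tested, with a median of 0.20. Besides Lef1 and Cdh2, these were led by the kinase gene Pim2, from 175 ± 3.41 to 237 ± 3.73 CPM (0.44 ± 0.0307), and the carbonic anhydrase gene Car2, from 147 ± 6.58 to 189 ± 2.004 CPM (0.37 ± 0.0333). Otx2 and Pou3f1, transcription factors that open formative enhancers, rose by 0.32 ± 0.0593 and 0.28 ± 0.0383, and Zic2 by 0.27 ± 0.0502. The de novo DNA methyltransferase gene Dnmt3b rose from 1123 ± 25.1 to 1259 ± 7.80 CPM (0.16 ± 0.0274; 13.7% shared) and Fgf15, a secreted FGF, by 0.32 ± 0.103. Fgf5, the classic epiblast marker, was not called (0.20 ± 0.108, adjusted p = 0.222). The member called lower was the TEAD factor gene Tead2 (-0.11 ± 0.0325). Without chr8A replicate 3, 10 members were higher.

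Wnt targets were higher where they were called at all, in 6 of 16 tested, against 8.83% of all genes tested. Sp5, a direct target that damps the pathway, rose from 2.30, 2.56 and 3.39 CPM to 7.35, 5.26 and 5.52 CPM (1.14 ± 0.150, adjusted p = 2.75e-09), and its relative Sp8 from 0.626, 1.01 and 0.895 to 2.01, 2.01 and 2.59 CPM (1.37 ± 0.285). Axin2, the feedback inhibitor gene, rose from 10.6 ± 0.181 to 14.05 ± 0.439 CPM (0.41 ± 0.0883), Ccnd1, which encodes cyclin D1, by 0.28 ± 0.0310 and the homeobox gene Cdx2, at about 1 CPM, by 1.07 ± 0.322. Sp5, Sp8 and Cdx2 were weakly transcribed in both lines. The list shares Lef1 with the formative genes and Ccnd1 with the ERK genes. Among 21 tested genes of Nodal and BMP signalling, 9 were higher and 5 lower (8.83% and 7.77% of all genes tested). Id1, an inhibitor of bHLH factors and a BMP target, rose from 43.3, 43.5 and 41.7 to 73.2, 56.6 and 63.2 CPM (0.59 ± 0.0577), Id3 by 0.41 ± 0.0708 and Id2 by 0.16 ± 0.0412. The BMP targets Id4 (-0.15 ± 0.159), Smad6 (0.03 ± 0.149) and Smad7 (0.07 ± 0.0508) were not called. The activin antagonist gene Fst rose by 0.83 ± 0.125, and the Nodal co-receptor gene Tdgf1 by 0.19 ± 0.0272 (12.8% shared). The Nodal inhibitor genes Lefty1 (-0.31 ± 0.0333) and Lefty2 (-0.24 ± 0.0363) were lower, with 26.3% and 18.7% of their sequence shared with other genes, so both are uncertain. Nodal itself was higher (0.16 ± 0.0438).

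ERK output genes, transcripts that MEK and ERK signalling drives, were higher in 12 of 21 tested and lower in 1 (8.83% and 7.77% of all genes tested), with a median of 0.15. The ephrin receptor gene Epha2 had the smallest adjusted p and went from 331, 331 and 334 CPM in chr8A to 430.5, 414 and 421 CPM in clone 1 (0.35 ± 0.0282). Myc went from 58.7, 56.2 and 55.2 to 73.9, 74.7 and 71.8 CPM (0.37 ± 0.0450), and the immediate early gene Egr1 had the largest rise of the list (0.56 ± 0.0936). Feedback inhibitors of the pathway were divided. The phosphatase gene Dusp6 rose by 0.20 ± 0.0349, Spry2 by 0.20 ± 0.0341, Spry4 by 0.18 ± 0.0347 and Spred1 by 0.09 ± 0.0322, Spry1 was lower (-0.21 ± 0.0559), and Spred2 (0.07 ± 0.0368), Dusp4 (-0.03 ± 0.0451), Dusp5 (0.05 ± 0.0704) and Il17rd (-0.09 ± 0.0383) were not called. Etv1, an ETS factor gene, rose by 0.43 ± 0.0695 (10.03% shared). Without chr8A replicate 3, 9 members were higher. Targets of the cytoskeletal regulators SRF and YAP were higher in 13 of 26 and lower in 1 (8.83% and 7.77% of all genes). Ccn1, a secreted matrix protein gene of YAP, went from 176 ± 4.29 to 219 ± 8.15 CPM (0.32 ± 0.0330), the intermediate filament gene Vim from 69.3 ± 5.41 to 89.7 ± 2.39 CPM (0.37 ± 0.0406) and the focal adhesion gene Zyx from 94.2 ± 3.60 to 118 ± 1.43 CPM (0.33 ± 0.0374). Ajuba, a LIM protein gene, rose by 0.21 ± 0.0278. Myl9, a myosin light chain gene, was the one called lower (-0.19 ± 0.0576), and that call was lost in 3 of the 6 fits with a library left out.

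**Figure D4:**
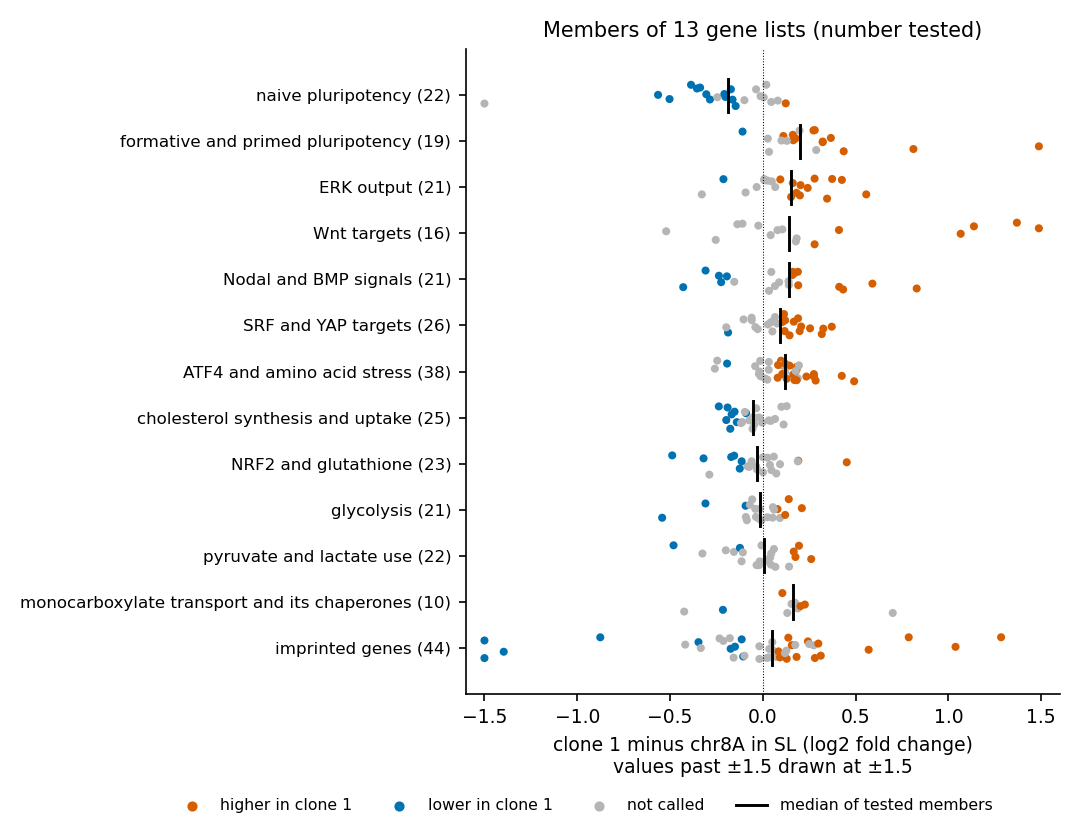
Members of 13 gene lists (rows, with the number tested) by their log2 fold change, clone 1 minus chr8A in SL (x axis); orange points were called higher, blue points lower and grey points not called, and black ticks are list medians. The naive list has its median at -0.19 and the formative list at 0.20.

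Genes of the ATF4 response, which cells switch on when amino acids run short or protein folding is disturbed, were higher in 21 of 38 tested and lower in 1 (8.83% and 7.77% of all genes tested), with a median of 0.12. Stc2, a secreted glycoprotein gene, went from 28.9, 29.6 and 24.1 CPM in chr8A to 38.8, 38.8 and 38.7 CPM in clone 1 (0.49 ± 0.0629, adjusted p = 8.91e-10). Chac1, which encodes an enzyme that degrades glutathione, went from 29.1, 31.6 and 29.4 to 41.6, 42.7 and 36.5 CPM (0.43 ± 0.0614, adjusted p = 4.35e-08). In Stc2 the clone 1 libraries were almost equal, and in neither gene did the lines overlap. The importers of cationic amino acids Slc7a1 and Slc7a3 rose by 0.27 ± 0.0321 and 0.17 ± 0.0297. Atf4 itself rose from 387 ± 16.8 to 433 ± 5.34 CPM (0.16 ± 0.0287). Trib3 (0.27 ± 0.0502), Sesn2 (0.18 ± 0.0329), Mthfd2 (0.18 ± 0.0346), Slc7a5 (0.18 ± 0.0326), Herpud1 (0.28 ± 0.0675), Ddit3 (0.23 ± 0.0795) and Atf3 (0.28 ± 0.103) were also higher. Asparagine synthetase, the textbook ATF4 target Asns, was not called (0.03 ± 0.0288, adjusted p = 0.512), and the proline synthesis gene Pycr1 was the one called lower (-0.19 ± 0.0535). With a library left out, 16 to 20 members were higher.

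ATF4 binds, together with C/EBP factors, a composite element whose core is written TGATGNAA. The 250 bases before the start of 3 members that rose are shown with the element, on whichever strand, in capitals (RefSeq, GRCm38.p6). Chac1 lies at chr2:119350992-119351241 (plus strand), Atf3 at chr1:191183334-191183583 (minus strand) and Herpud1 at chr8:94386179-94386428 (plus strand).
Chac1: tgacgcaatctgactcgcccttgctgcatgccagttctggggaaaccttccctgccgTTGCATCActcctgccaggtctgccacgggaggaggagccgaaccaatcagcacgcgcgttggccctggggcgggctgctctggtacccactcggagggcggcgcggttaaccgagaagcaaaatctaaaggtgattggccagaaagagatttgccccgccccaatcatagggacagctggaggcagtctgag
Atf3: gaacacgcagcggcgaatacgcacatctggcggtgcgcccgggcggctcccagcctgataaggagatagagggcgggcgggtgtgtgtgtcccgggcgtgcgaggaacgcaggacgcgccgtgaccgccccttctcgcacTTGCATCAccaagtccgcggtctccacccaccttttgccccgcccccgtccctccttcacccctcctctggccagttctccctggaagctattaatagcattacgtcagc
Herpud1: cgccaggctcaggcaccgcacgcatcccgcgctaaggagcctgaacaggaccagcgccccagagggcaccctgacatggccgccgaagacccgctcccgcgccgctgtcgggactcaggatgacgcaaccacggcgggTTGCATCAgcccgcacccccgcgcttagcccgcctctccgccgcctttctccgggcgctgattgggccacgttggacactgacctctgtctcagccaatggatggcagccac
Searched on both strands in windows from 250 bases before to 50 after each start, TGATGNAA was found in 3.97% of 32851 windows. By gene, 372 of 13030 tested genes with a window (2.85%) held it. Of the 32 tested list members with a window, 12 (37.5%) held it. The list gathers genes of the ATF4 response, so its share was likely to be high from the start. It was present in 6 of 17 members called higher (35.3%), in 5 of 14 not called (35.7%) and in Pycr1, the 1 member called lower. Over all tested genes with a window it was 3.1% of those called higher and 2.49% of those called lower. A match is a string of letters and not a site shown to be bound.

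Of 22 genes of pyruvate and lactate use, 4 were higher and 2 lower (8.83% and 7.77% of all genes tested). The median of the list was 0.01. The lactate dehydrogenase subunits moved apart. Ldhb, the subunit that favours lactate oxidation, went from 136, 139 and 134 CPM to 99.002, 94.6 and 99.5 CPM (-0.48 ± 0.0363, adjusted p = 1.61e-20; 33.8% shared), and Ldha, the main subunit of glycolytic cells, from 1452, 1443 and 1407 CPM to 1657, 1601 and 1601 CPM (0.18 ± 0.0283; 20.1% shared). Neither overlapped between lines, and both are uncertain where their sequence is shared. Subunits of pyruvate dehydrogenase, the entry to the mitochondrial cycle, differed in direction: Pdhb (0.19 ± 0.0326; 17.95% shared) and Pdhx (0.26 ± 0.0576) were higher, and Pdha1 was lower (-0.12 ± 0.0289). Pck2, which makes phosphoenolpyruvate in mitochondria, was higher (0.17 ± 0.0422). The mitochondrial pyruvate carrier genes Mpc1 (0.06) and Mpc2 (-0.16) and the 4 pyruvate dehydrogenase kinase genes were not called. In glycolysis 4 of 21 were higher and 3 lower (8.83% and 7.77% of all genes tested). The aldolase gene Aldoc went from 22.6 ± 0.872 to 15.5 ± 1.11 CPM (-0.54 ± 0.0785) and the hexokinase gene Hk1 from 49.5 ± 1.73 to 40.02 ± 1.84 CPM (-0.31 ± 0.0474). The glucose transporter gene Slc2a1 rose by 0.14 ± 0.0283 and Pfkfb3, which makes an activator of phosphofructokinase, by 0.21 ± 0.0522. The number of higher glycolysis genes fell to 2 without chr8A replicate 3 and without clone 1 replicate 1.

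Cholesterol synthesis and uptake genes were lower in 8 of 25 and higher in none (7.77% and 8.83% of all genes tested). The median of the list was -0.06. Fdps went from 109.98, 109 and 107 to 92.4, 92.2 and 92.2 CPM (-0.24 ± 0.0373; 28.02% shared), and Fdft1, which commits the pathway to sterols, changed by -0.15 ± 0.0326 (14.6% shared). The regulator gene Srebf2 went from 413 ± 13.2 to 375 ± 4.69 CPM (-0.14 ± 0.0282) and Insig1, which retains its product in the endoplasmic reticulum, from 95.4 ± 2.95 to 84.5 ± 2.66 CPM (-0.18 ± 0.0382). Among 23 genes of NRF2 and glutathione metabolism, 2 were higher and 6 lower (8.83% and 7.77% of all genes tested). Gpx1, a peroxidase of the glutathione system, rose from 130.5, 133 and 124 to 186, 167 and 177 CPM (0.45 ± 0.0560). The heme oxygenase gene Hmox1, among the 6 genes of at least 3 log2 CPM after the chromosome 8 stretch, rose by 0.19 ± 0.0383. Gstm1, a glutathione transferase gene, fell from 47.9, 49.5 and 54.7 to 36.3, 34.97 and 37.2 CPM (-0.49 ± 0.0523; 29.4% shared). The ferritin light chain gene Ftl1 changed by -0.12 ± 0.0274, with 58.1% of its sequence shared, and Nfe2l2, which encodes NRF2, by -0.15 ± 0.0364.

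Imprinted genes, which in at least some tissues are transcribed mainly from the copy of a single parent, were higher in 14 of 44 tested and lower in 9. Which copy was transcribed in these lines was not measured. Over all genes tested 8.83% were higher and 7.77% lower. The median of the list was 0.05. Peg3, Usp29 and Plagl1 made up the falls of largest size together with H19 (-1.40 ± 0.270), a weakly transcribed noncoding RNA at 2.33 and 0.880 CPM. Igf2, the growth factor gene beside H19, was also lower (-0.35 ± 0.0443), and 61.9% of its sequence is shared with other genes, so it is uncertain. Among the rises, Zdbf2 went from 277, 274 and 258 to 331, 333 and 339.9 CPM (0.31 ± 0.0324). Gatm, a creatine synthesis gene, rose by 0.57 ± 0.0979, the neuronatin gene Nnat by 0.28 ± 0.0450 and Nap1l5, at 1 to 2 CPM, by 1.04 ± 0.293. The number of higher imprinted genes was 9 without chr8A replicate 3 or without clone 1 replicate 1.

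The same 2 lines were also sequenced in SL2i, with no library in common with the SL comparison. In SL2i 3853 genes (22.4%) were called between clone 1 and chr8A, 1780 (10.4%) higher and 2073 (12.1%) lower. Of the 1516 genes higher in SL, 352 were also higher in SL2i, which is 23.2% of the SL list and 19.8% of the SL2i list. Of the 1334 lower genes, 443 were also lower in SL2i, 33.2% of the SL list and 21.4% of the SL2i list. Opposite calls were given to 165 of the higher (10.9%) and 139 of the lower genes (10.4%). These shares are near those of all genes tested, of which 12.1% were lower and 10.4% higher in SL2i. The difference between the media was itself tested as an interaction and called for 2925 genes (17%), with the SL value above for 9.24% of all genes tested and below for 7.78%. Among them were 525 of the higher and 486 of the lower genes (34.6% and 36.4%).

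Naive genes differed between the lines in a way that depended on the medium. List counts in SL2i can be read against 10.4% higher and 12.1% lower over all genes tested. Interaction counts can be read against 17%, with the SL value above for 9.24% and below for 7.78%. In SL2i 11 of the 22 naive genes were higher in clone 1 and 7 lower. The interaction was called for 11, for 10 of them with the SL value below the SL2i value. Esrrb in SL2i stood at 837 and 843 CPM in the chr8A libraries and 1099 and 1058 CPM in the clone 1 libraries, above rather than below chr8A (0.36 ± 0.0346; interaction -0.65 ± 0.0455, adjusted p = 1.56e-22). Tfcp2l1 turned likewise (0.11 ± 0.0345 in SL2i; interaction -0.50 ± 0.0463). Klf2 was lower in both media. Of the 38 ATF4 genes, 3 were higher and 15 lower in SL2i, and the interaction was called for 18, for 17 with the SL value above. For Chac1 the interaction was 0.77 ± 0.194 (adjusted p = 0.00201). ERK output genes were called higher in 12 of 21 in each medium. Their interaction was called for 12 members, for 10 of them with the larger value in SL2i, the medium with a MEK inhibitor. Spry4 stood at 3.77 and 4.64 CPM in chr8A and 34.7 and 39.2 CPM in clone 1 in SL2i (3.14 ± 0.127), against 0.18 ± 0.0347 in SL. Myc was also higher in both, by 1.51 ± 0.124 in SL2i and 0.37 ± 0.0450 in SL. Cholesterol genes were lower in 13 of 25 and higher in 4 in SL2i. Ldhb was lower in both media and by more in SL2i (-1.62 ± 0.0484), and Sp5 turned from higher in SL to lower in SL2i (-0.60 ± 0.133). The largest interactions by the naming rule were those of Igf2, which stood at 2.71 and 3.26 CPM in chr8A and 38.5 and 45.3 CPM in clone 1 in SL2i, of the homeobox gene Rhox5, at 14.9 and 13.5 and 126 and 115 CPM, of Spry4, and of Krt7 and Myl9, both at about 1 CPM or less in SL2i. Medium and set of libraries cannot be told apart here: the SL2i libraries held 9784408 to 10830504 counts.

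**Figure D5:**
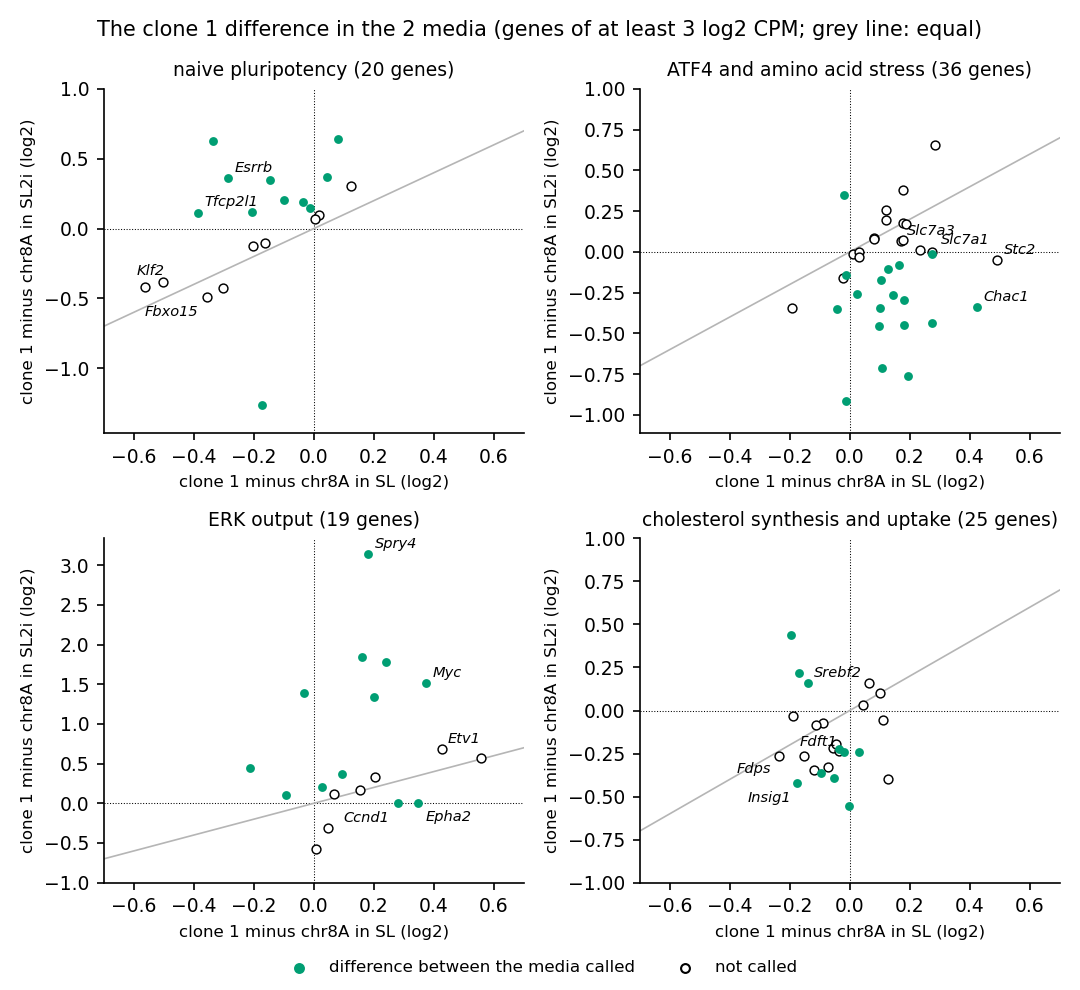
Members of 4 lists with at least 3 log2 CPM, by the clone 1 minus chr8A log2 difference in SL (x axis) and in SL2i (y axis, with its own range in each panel); the grey line marks equal values, and filled points are genes whose difference between the media was called. Esrrb and Tfcp2l1 lie below 0 in SL and above 0 in SL2i, while Klf2 and Fbxo15 lie below 0 in both.

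Clone 2 is another line labelled for the same gene and was tested directly against clone 1. In SL 756 genes (4.4%) differed between the clones, 291 (1.69%) higher and 465 (2.71%) lower in clone 2. With RLE in place of TMM factors the split was 201 higher and 535 lower. Slc16a1 was among the lower genes, at 92.8, 91.4 and 96.5 CPM in clone 2, well below clone 1 (-0.87 ± 0.0353, adjusted p = 7.24e-40). Plagl1 differed most among the genes named here: it was nearly absent from clone 2, at 0.310, 0.130 and 0.359 CPM (-6.44 ± 0.152, adjusted p = 2.20e-58). Zrsr1 was higher in clone 1 than in clone 2 (-0.80 ± 0.0913). For Peg3 the difference between the clones was -0.0043 ± 0.0361 (adjusted p = 0.99), for Lef1 0.22 ± 0.0680 (adjusted p = 0.0464) and for Stc2 0.03 ± 0.0603 (adjusted p = 0.888). SRF and YAP targets were lower in clone 2 than in clone 1 in 14 of 26, with Ccn1 at -0.29 ± 0.0330, and higher in none. Formative genes were higher in clone 2 in 8 of 19, with Otx2 at 0.36 ± 0.0563 and Pim2 at 0.21 ± 0.0301, and naive genes in 5 of 22, with Esrrb at 0.16 ± 0.0297. Against chr8A, whose libraries both clones share and from which 26.9% of genes differed in clone 2, Otx2 stood at 0.32 in clone 1 and 0.69 in clone 2, Esrrb at -0.28 and -0.13, and Ccn1 at 0.32 and 0.03.

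Other runs of neighbouring genes called in 1 direction were short. Besides the 7 genes in an unbroken run within the chromosome 8 stretch, of which Gm51538 lost its call in 3 alternative fits, there were 4 runs of 4 genes. Lower runs were Rab5b, Pmel, Cdk2 and Dgka on chromosome 10 (-0.12 to -0.68) and Mettl27, Cldn4, Cldn3 and Abhd11 on chromosome 5 (-0.16 to -0.26). Cldn3 and Cldn4 encode claudins of tight junctions, and Cldn4 went from 251 ± 5.20 to 224 ± 5.84 CPM. Higher runs were Ccdc85a, Efemp1, Pnpt1 and Ppp4r3b on chromosome 11 (0.18 to 0.48) and Pou3f1, Utp11, Fhl3 and Sf3a3 on chromosome 4 (0.15 to 0.52). Of these 16 genes, Abhd11, Cdk2, Cldn3, Mettl27, Rab5b and Utp11 lost their call in at least 1 fit with a library left out. Rab5b, Utp11, Fhl3 and Sf3a3 share 11.96%, 5.03%, 12.5% and 8.32% of their sequence. The highest windows of 9 genes lay on chromosome 3. The one from Eif2a to Arhgef26 had a median of 0.26 with 5 genes called higher, and in SL2i its median was 0.03. Those from Mbnl1 to Ssr3 and from Rap2b to Tiparp had 8 genes called higher, with a median of 0.22 in SL and 0.02 in SL2i. Over the genome 4 windows had 7 or more genes called higher and 5 had 7 or more called lower. Whole chromosomes differed little: the medians of the autosomes lay between -0.03 and 0.03, and that of the X chromosome was 0.05.

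The counts of the other lists can be read against 8.83% higher and 7.77% lower over all genes tested. Genes of NADH shuttles and NAD metabolism were higher in 1 and lower in 1 of 20, respiratory chain and ATP synthase genes in 3 and 5 of 51, and genes of the TCA cycle and glutamine entry in 2 and 4 of 21. Chaperones of the endoplasmic reticulum were higher in 5 and lower in 1 of 18, hypoxia response genes in 3 and 2 of 21, and genes of nucleotide synthesis and the pentose phosphate pathway in 5 and 3 of 25. Fatty acid synthesis genes were higher in 1 and lower in 4 of 16, lysosome genes in 2 and 6 of 26, and interferon and antiviral genes in 1 and 5 of 23. Core pluripotency genes were higher in 4 and lower in 1 of 10, LIF and STAT3 output genes in 2 and 4 of 15, and FGF signals in 2 and 3 of 11. Genes of DNA methylation and the germline were higher in 6 and lower in 3 of 27, polycomb genes in 3 and 2 of 22, and cell cycle genes in 6 and 4 of 35. Matrix and adhesion genes were higher in 8 and lower in 8 of 31 and p53 targets in 6 and 5 of 20. Called in either direction were 55% of the p53 targets, 51.6% of the matrix genes, 50% of the core pluripotency genes and 45.5% of the FGF signals, beside 16.6% of all genes tested, and 15.7% of the respiratory chain genes and 10% of those of NADH shuttles. Without chr8A replicate 3, respiratory chain genes were higher in 1 and lower in 2, hypoxia response genes in 1 and 1, 1 polycomb gene was higher and no lysosome gene was. None of 11 genes of the two-cell-like state was called, and all were below 1 CPM.

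Both lines had the transcripts of pluripotent cells. Calls of markers can be read against 8.83% higher and 7.77% lower over all genes tested. Markers of pluripotent stem cells summed to 4908.8 to 5184.5 CPM in chr8A and 4916.7 to 4929.3 in clone 1 (10 of 10 tested; 3 higher, 6 lower). Markers of mesoderm summed to 18.4 to 20.7 and 19.7 to 22.1 CPM, with 9 of 13 tested and none called, and T, Mesp1, Msgn1 and Lhx1 too low to test. Primitive endoderm markers were tested for 9 of 14, none called, and nearly all of their sum was Lrp2. Neural markers summed to 484 to 503 CPM in chr8A and 557 to 571 in clone 1, of which Nes rose (0.40 ± 0.0307) while Sox1 (-0.29 ± 0.192) and Pax6 (0.14 ± 0.176) were not called. Fibroblast markers (2 of 9 higher, 1 lower) summed to 61.96 to 66.3 CPM in chr8A and 64.98 to 68.8 in clone 1. Trophectoderm markers (3 of 12 higher, 2 lower) summed to 819 to 843 and 875 to 926 CPM, and germ cell markers (1 of 10 higher, 4 lower) to 294 to 318 and 266 to 273 CPM. Whether cells of another type had a part in any result was not tested. Of the called genes, 3 had reads in 1 line only, and their folds are taken against a floor of 3 counts over the group. Stk33 had 0 reads in chr8A and 11 in clone 1 (at least 5.19-fold higher). D7Ertd128e had 19 and 0 (at least 4.47-fold lower) and 2310069B03Rik 9 and 0 (at least 2.12-fold lower). These floors cover counting error only.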

How the data were processed

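Poly(A) RNA libraries were made with a stranded kit from 500 ng of RNA and 8 PCR cycles, per the labels' protocols. The authors aligned reads to GRCm39 with DRAGEN 3.10 and counted them with featureCounts of Subread, per the submitters' processing notes. For featureCounts, use of strand is not given in sources used here, so overlapping and antisense genes may share reads. Values in the deposited tables are raw, whole-number gene counts. The 15 libraries of the MCT1 table were fitted together as 6 groups, sharing 1 estimate of spread, and the 3 vector libraries, from a separate table, gave levels only. LbNOX libraries and genes of the mitochondrial genome were not analysed here.

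Counts were tested with edgeR 4.0.16 in R 4.3.3 (filterByExpr, TMM, robust quasi-likelihood test, Benjamini-Hochberg adjustment over all genes tested, called under 0.05). Tables and motif searches used Python 3.11.15. RefSeq GRCm38.p6 gave chromosomes and gene order for 96.5% of the genes in the table. Shared sequence is the percent of 30-base words of a gene's transcripts that occur in another gene, given where it reached 5%. Names by rule were Slc16a1, the 12 largest rises and 12 largest falls with at least 3 log2 CPM and no overlap, up to 4 members per list by adjusted p, runs of 4 or more called neighbours, and the 5 largest interactions. Of the rises that met the rule, 1 is not reported here. The chromosome 8 stretch and other list members named were chosen after their values were seen. The members and the lists were chosen with earlier results of these data known. Same-numbered libraries of the lines did not deviate together (correlations of -0.07, 0.00 and -0.01), so the numbers were not taken as pairs. On simulated data for this comparison (16773 genes) changes were planted only in genes averaging at least 1 CPM, and all others were equal between the lines. The test recovered 39 of 67 1.2-fold changes (58.2%), 59 of 67 1.5-fold (88.1%) and 60 of 66 2-fold (90.9%), with 13 false among 171 calls. In the data 16.6% of genes were called, a far larger share than was planted, so these rates may not hold there. Alternatives were RLE factors, other filters, DESeq2 1.42.0, a replicate block, only the 6 libraries, equal depth and each library left out.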

Additional observations from a re-analysis of the deposited data

Results flagged for a closer look

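Named genes were tested for a clone 1 difference that depended on the medium, and 46 of 100 had one by edgeR's quasi-likelihood test of the interaction (adjusted p under 0.05). Of these, Igf2, Krt7, Spry4, Myl9 and Rhox5 were named because of their interactions, so their values are a description. Of the other 95 genes 41 had one, against 17% of all genes tested. Most of the 95 were named for their SL difference, which is part of the interaction, so the naming rule raises this share. Among all genes called in SL, the interaction was called for 34.6% of the higher and 36.4% of the lower ones. Values here are the log2 difference in SL minus that in SL2i.

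The SL value lay below the SL2i value in 18 genes. The widest gaps were those of Igf2 (-4.16), Krt7 (-3.56), Spry4 (-2.96), Myl9 (-2.77) and Rhox5 (-2.75). Further such genes were Myc (-1.14), Car2 (-0.98), Gpx1 (-0.80), Aldh1b1 (-0.78), Zyx (-0.72) and Esrrb (-0.65). Nefl (-0.59), Aqp3 (-0.53), Inpp5d (-0.50), Tfcp2l1 (-0.50), Srebf2 (-0.30), Ftl1 (-0.21; 58.1% shared) and Cherp (-0.14) followed.

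The SL value lay above the SL2i value in 28 genes. Among genes of signalling and pluripotency these were Sp5 (1.74), Lefty1 (1.43; 26.3% shared), Cdh2 (1.08), Lef1 (0.70), Fst (0.63), Epha2 (0.34), Ccnd1 (0.28) and Tdgf1 (0.22). Among genes of transport and metabolism they were Ldhb (1.14; 33.8% shared), Abcg1 (0.81), Chac1 (0.77), Emb (0.75), Pdhx (0.36), Slc7a1 (0.29), Ldha (0.28; 20.1% shared), Insig1 (0.25), Pdhb (0.19; 17.95% shared) and Slc16a1 itself (0.18). The others were Vim (0.94), Fhl3 (0.88), Akap17a (0.58), Ttn (0.55), Utp11 (0.32), Smim7 (0.25), Ppp4r3b (0.23), Pnpt1 (0.18), Cdk2 (0.17) and Sin3b (0.16). Within the chromosome 8 stretch Cherp, Smim7 and Sin3b were thus lower in both media by unequal amounts.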

How the results depend on the processing

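With every library thinned to an equal depth, 1256 genes were called between clone 1 and chr8A in SL, 241 between clone 2 and clone 1, 2344 between clone 2 and chr8A, and 1779 for the interaction with medium. DESeq2 called 1774, 386 and 2876 in the first 3 of these. For clone 1 in SL, RLE factors gave 2867, testing without a filter 2538, asking for 1 CPM in 3 libraries 2925 and only the 6 libraries compared 3105, and leaving out a library gave 2031 to 2506. Chosen after the data were seen, counting only genes under 5% shared sequence gave 2315, and leaving out the 13 genes from Klf2 to Sin3b gave 2840. Genes called higher made up 47.6% to 58.2% of the calls over these settings, against 53.2%. Slc16a1 was called in each of these fits. Of the named genes, 16 of 98 lost their call at equal depth, 8 of 94 with DESeq2, 2 of 99 without a filter and up to 6 of 99 without a library, and none turned direction. Of 76 counts of list members called higher or lower, 36 moved by over 1.5 times at equal depth, 19 with DESeq2 and 15 without chr8A replicate 3. The replicate block gave 3143 calls for clone 1 in SL and changed no call of a named gene, though the labels' numbers did not pair the libraries.

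Depth limits what can be seen: the equal-depth calls had libraries of the smallest total, 9784408 counts. SL2i results rest on 2 libraries a line. Each line is a single line, so line and alteration cannot be told apart.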
